A study of Sus scrofa with 17 samples.

Results

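The genes described here are 10 that encode adipocyte hormones or proteins of fat storage, synthesis and release. They were taken from a table of read counts for 31908 Ensembl genes in piglet longissimus muscle. The 10 are AQP7, which encodes a channel for glycerol, and ADIPOQ, LEP, PLIN1, PLIN4, FABP4, CIDEC, SCD, FASN and LPL. Each except AQP7 was found by the Ensembl identifier that carries its symbol in the annotation of the pig assembly Sscrofa11.1, and the identifier of AQP7 was named by its position within the RefSeq gene. AQP7 was chosen by its level, which was higher in the ULU group of these same libraries, so that difference is given as a description with no test. The other 9 genes were selected by name, to be set beside AQP7. Of the 10 genes, 9 passed the filter on low counts and are among the 14203 genes that were tested. LEP did not pass it.

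Adipocytes keep triglyceride in a lipid droplet that is coated by perilipins and enlarged by CIDEC. When triglyceride is broken down, fatty acids and glycerol are released, and AQP7 is a channel through which glycerol crosses the adipocyte membrane. As an aquaporin it also carries water. The paper cites its rise in cardiac myoblast cells under hyperosmotic stress, so AQP7 RNA is not confined to fat cells. In muscle the fat cells lie between the fibres as intramuscular fat, while the fibres themselves also hold lipid droplets and take up fatty acids that LPL frees from circulating lipoproteins.

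RNA was sequenced from the muscle of male Large White × Duroc piglets, 1 library per piglet, as single reads of 75 bases. The control group (6 piglets) received a cereal and soybean meal diet without seaweed. In the UL group (6 piglets) the diet held 7% of the green seaweed Ulva lactuca, and in the ULU group (5 piglets) it held the same 7% together with 0.01% of ulvan lyase, an enzyme that cuts ulvan, a cell wall polysaccharide of the seaweed. All piglets were 28 days old at the start, had 5 days of adaptation, were housed singly and were pair-fed these diets for 2 weeks. The samples are whole muscle, so the number of fat cells in a sample and the RNA per fat cell cannot be told apart.

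The reads that fell on genes numbered 16137365 to 26546810 in each library. Levels are given as CPM, the counted reads of a gene as parts per 1e6 after scaling the libraries with edgeR's TMM factors, and 3 reads corresponded to between 0.1300 and 0.195 CPM. Muscle genes made up much of each library, with ACTA1, the skeletal muscle actin, at 49396 CPM or more in the control piglets. Reads of mitochondrial genes took 14.05% to 15.9% of the counted reads in control, 8.64% to 14.8% in UL and 8.002% to 11.6% in ULU. The control and ULU ranges did not overlap. A fit of ULU vs control with this share as a covariate therefore cannot tell the share apart from the diet. Control piglet 24 stood apart for these genes: it had the highest level of the 17 libraries for 8 of the 10 genes, although only 8.96% of all tested genes had their highest level in that library. Differences from control that rest on it are given with and without it.

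**Figure D1:**
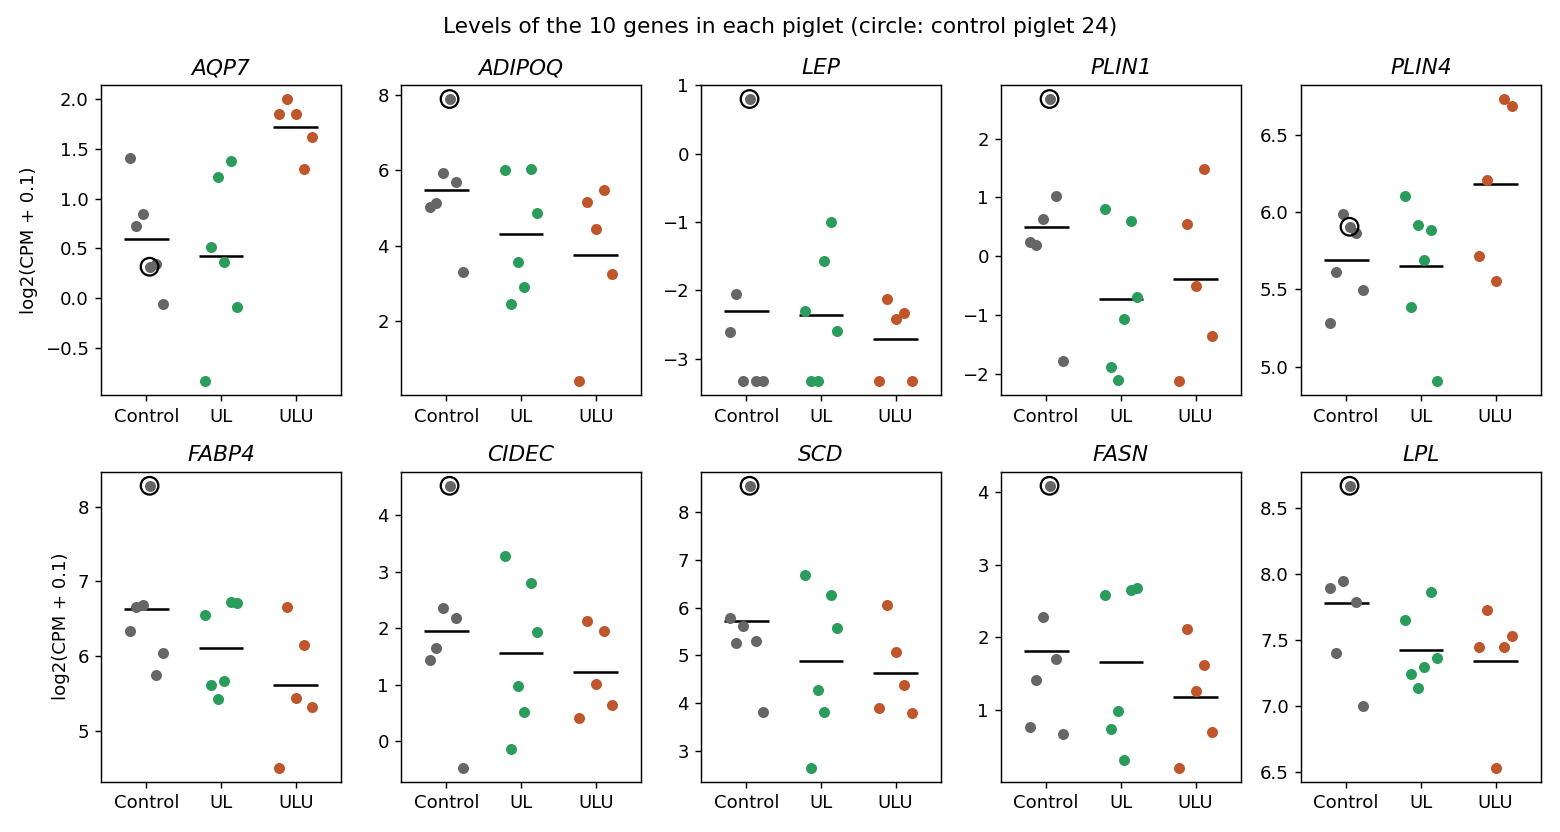
Level of each gene, as log2(CPM + 0.1) on the y axis, in the 6 control, 6 UL and 5 ULU piglets, with 1 point per library and a line at the mean of the diet. The open circle marks control piglet 24, which is the highest point for 8 of the 10 genes, the exceptions being AQP7 and PLIN4.

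AQP7 (ENSSSCG00000010992, chromosome 10, 33099169 to 33116155, plus strand) had few reads in this muscle, from 9 to 81 per library. In control the level was 2.55, 1.56, 1.70, 1.15, 1.17 and 0.860 CPM in piglets 21 to 26, in that order. In UL it was 0.463, 1.33, 2.22, 1.19, 2.503 and 0.845 CPM in piglets 27 to 32. In ULU it was 3.49, 3.90, 3.51, 2.37 and 2.97 CPM in piglets 40 to 44. The 4 highest ULU libraries lay above every control and UL library, and the ULU library with the lowest level, piglet 43, lay below control piglet 21 and UL piglet 31, so the groups overlapped.

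The control mean of AQP7 was 1.496 ± 0.597 CPM (SD, n = 6). The UL mean was close to it, 1.42 ± 0.791 CPM (SD, n = 6), and the ULU mean was 3.25 ± 0.594 CPM (SD, n = 5). In ULU vs control the log2(fold change) was 1.12 with a standard error of 0.35, and in ULU vs UL it was 1.18 with a standard error of 0.35. Leaving out each library in turn gave log2(fold change) values from 1.01 to 1.33 for ULU vs control and from 0.996 to 1.41 for ULU vs UL. Without control piglet 24 the value for ULU vs control was 1.06. In UL vs control, which had no part in the choice of the gene, the log2(fold change) was -0.06 with a standard error of 0.34, and the difference did not pass the test (edgeR adjusted p = 0.974).

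The whole of AQP7 lies within the span of NFX1, a gene for a zinc finger transcription factor on the opposite strand (chromosome 10, 33055408 to 33200680), and 163 exonic bases belong to both. The file header names no strand setting for the counting, so reads of NFX1 transcripts that fall on AQP7 exons cannot be told apart from reads of AQP7. NFX1 itself had 295 to 521 reads per library. On average it stood at 22.8 ± 4.59 CPM (SD, n = 6) for control, 20.3 ± 4.10 CPM (SD, n = 6) for the UL piglets and 20.7 ± 1.57 CPM (SD, n = 5) for the ULU piglets. These values count reads on the exons of NFX1. They do not measure reads of NFX1 transcripts that fall on the rest of the AQP7 exons. The share of NFX1 reads in the AQP7 count was not tested.

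ADIPOQ (ENSSSCG00000039103, chromosome 13, 124633684 to 124646648) encodes adiponectin, a hormone that mature fat cells secrete. Its level in control ran from 9.65 to 238 CPM with a median of 43.1, in UL from 5.32 to 65.1 CPM with a median of 20.3, and in ULU the piglets 40 to 44 had 1.22, 35.9, 21.8, 44.7 and 9.29 CPM. The groups overlapped over most of their range, and the highest and the lowest library of the study, control piglet 24 and ULU piglet 40, differed 195-fold. The log2(fold change) was -1.66 with a standard error of 0.82 in ULU vs control (edgeR adjusted p = 0.284), and it was -0.75 without control piglet 24 (edgeR adjusted p = 0.644).

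LEP (ENSSSCG00000040464, chromosome 18, 20106868 to 20123447) encodes leptin, the other adipocyte hormone among the genes. It had 30 reads in control piglet 24, 7 in UL piglet 31 and 5 in UL piglet 30, and 3 reads or fewer in the other 14 libraries. No ULU library had more than 2 reads, so a difference of the ULU group was not detectable at this depth, and no fold change is given.

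PLIN1 (ENSSSCG00000001844, chromosome 7, 55235426 to 55250797) encodes perilipin 1, the main droplet coat of the adipocyte. Its level was 0.191 to 6.27 CPM in control (median 1.27), 0.133 to 1.65 CPM in UL (median 0.45) and 0.131, 1.36, 0.607, 2.71 and 0.292 CPM in ULU piglets 40 to 44. The gene sat near the limit of the filter, 0.55 CPM before scaling, which 5 control, 2 UL and 3 ULU libraries reached. The 3 groups covered much the same range once control piglet 24 was set aside. For ULU vs control the log2(fold change) was -0.97 with a standard error of 0.78 (edgeR adjusted p = 0.536), and without that piglet it was -0.17 (edgeR adjusted p = 0.935). Without ULU piglet 43, the highest of its diet, it was -1.77 (edgeR adjusted p = 0.313).

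CIDEC (ENSSSCG00000011557, chromosome 13, 66141838 to 66149703) encodes a protein that fuses small droplets into the large droplet of a fat cell. It ran from 0.621 to 22.9 CPM in control (median 3.72), from 0.809 to 9.63 CPM in UL (median 2.79), and it was 1.22, 4.29, 1.91, 3.75 and 1.46 CPM in ULU. Control piglet 24 was 4.54 times the next control piglet, and the remaining libraries of the 3 groups overlapped. For ULU vs control the log2(fold change) was -1.36 with a standard error of 0.72 (edgeR adjusted p = 0.319), against -0.32 without control piglet 24 (edgeR adjusted p = 0.821) and -2.31 with the mitochondrial share of each library as a covariate (edgeR adjusted p = 0.448).

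PLIN4 (ENSSSCG00000013512, chromosome 2, 74316771 to 74338941) encodes perilipin 4, a droplet coat protein that is found in muscle fibres as well as in fat cells. The level was 38.9, 48.9, 63.4, 59.9, 58.3 and 45.1 CPM in control piglets 21 to 26, it ran from 29.9 to 68.8 CPM in UL with a median of 55.2, and it was 52.5, 73.9, 47.0, 106 and 103 CPM in ULU piglets 40 to 44. ULU piglets 41, 43 and 44 lay above every control and UL library, and piglets 40 and 42 lay within the control range. Here control piglet 24 was not the highest control library. Of the 9 genes that passed the filter, only PLIN4 and AQP7 had a fitted level that was higher in ULU than in control. For PLIN4 the log2(fold change) was 0.54 with a standard error of 0.22, and the difference did not pass the test (edgeR adjusted p = 0.188). Leaving out each library in turn gave values from 0.40 to 0.68. With the mitochondrial share as a covariate the value was 0.29 (edgeR adjusted p = 0.829). In ULU vs UL the value was 0.56 with a standard error of 0.22 (edgeR adjusted p = 0.381). HDGFL2, on the opposite strand, shares 520 exonic bases with PLIN4 and had 26 to 60 reads per library, against 461 to 2155 for PLIN4.

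FABP4 (ENSSSCG00000040681, chromosome 4, 55096404 to 55101897) encodes the fatty acid carrier of the adipocyte cytoplasm, which endothelial cells and macrophages also make. The level ran from 53.4 to 311 CPM in control (median 90.9) and from 42.8 to 105 CPM in UL (median 72.0), and it was 22.6, 101, 43.4, 70.96 and 39.6 CPM in ULU. The ULU piglets 40, 42 and 44 lay below every control library, and the other 2 lay among them. For ULU vs control the log2(fold change) was -1.10 with a standard error of 0.43 (edgeR adjusted p = 0.17), and it was -0.54 without control piglet 24 (edgeR adjusted p = 0.432).

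LPL (ENSSSCG00000040631, chromosome 14, 4104772 to 4135814) encodes lipoprotein lipase, which muscle fibres as well as fat cells secrete. Its highest library was 4.41 times its lowest, against 3.55 times for PLIN4 and 195 times for ADIPOQ. The level ran from 128 to 408 CPM in control (median 229), from 141 to 233 CPM in UL (median 161) and with 175, 212, 92.5, 175 and 185 CPM in ULU. ULU piglet 42 had the lowest level of all 17 libraries, and the other ULU libraries lay within the control range. The log2(fold change) was -0.43 with a standard error of 0.23 in UL vs control (edgeR adjusted p = 0.519) and -0.49 with a standard error of 0.24 in ULU vs control (edgeR adjusted p = 0.284). Without control piglet 24, whose level was 1.65 times the next, the value for ULU vs control was -0.26 (edgeR adjusted p = 0.562). That for UL vs control was then -0.20 (edgeR adjusted p = 0.789).

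SCD (ENSSSCG00000010554, chromosome 14, 111461560 to 111478031) and FASN (ENSSSCG00000029944, chromosome 12, 920507 to 937559) encode enzymes of fatty acid synthesis, a desaturase that makes oleic acid and the fatty acid synthase. SCD was at 375 CPM in control piglet 24, 6.81 times the next control piglet, and ran from 13.998 to 55.1 CPM in the others. In UL it ran from 6.19 to 102 CPM, and in ULU it was 14.9, 66.7, 33.3, 20.6 and 13.9 CPM. FASN had 16.9 CPM in control piglet 24 and 1.48 to 4.73 CPM in the other control piglets. In UL it ran from 1.14 to 6.30 CPM, and in ULU it was 1.05, 4.22, 2.30, 2.96 and 1.51 CPM. For each of these enzymes the ULU range lay almost wholly within that of UL. In ULU vs control the log2(fold change) of SCD was -1.68 with a standard error of 0.78 (edgeR adjusted p = 0.249), and without control piglet 24 it was -0.39 (edgeR adjusted p = 0.775). With the mitochondrial share as a covariate the value of SCD was -2.82 (edgeR adjusted p = 0.381). That of FASN was -1.08 with a standard error of 0.62 (edgeR adjusted p = 0.358), and without that piglet it was -0.18 (edgeR adjusted p = 0.889).

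Set side by side, AQP7 and PLIN4 lay above control in ULU while the other 7 tested genes lay below it, none of the latter past the test. Of the 8 tested genes other than AQP7, edgeR called 0 in ULU vs control at an adjusted p under 0.05, a threshold that 423 of the 14203 genes passed (2.98%). At an unadjusted p under 0.05 there were 3 of the 8, PLIN4, FABP4 and SCD, beside 18.9% of all genes. DESeq2 on the control and ULU libraries gave an adjusted p to 6 of the 9 genes other than AQP7 and called 0 of them, beside 7.79% of all genes. The median log2(fold change) of the 8 genes was -1.09, and 7 of the 8 were below 0, whereas the median over all tested genes was -0.03 and 53.0% of them were below 0. Of these genes 6 moved closely together from piglet to piglet within diets (Pearson r from 0.80 to 0.93). The signs are thus not independent of one another, and their count was not tested. Without control piglet 24 the same 7 of 8 genes were below 0, but the median was -0.29 and the range was -0.75 to 0.59. The size of the difference thus depended on that library, and PLIN4 was then the only one of the 8 at an unadjusted p under 0.05.

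In UL vs control edgeR also called 0 of the 8 genes, as it did over all genes (0 of 14203, 0%). There were 0 of the 8 at an unadjusted p under 0.05, beside 10.8% of all genes, and DESeq2 called 0 of 7, beside 1.53%. All 8 genes were below 0, with a median log2(fold change) of -0.68 and values from -1.48 (PLIN1) to -0.01 (PLIN4). Without control piglet 24 the median was -0.05 and 4 of the 8 were below 0, and CIDEC, SCD and FASN then had values of 0.36, 0.18 and 0.50. The lower levels in UL thus depended on that piglet. In ULU vs UL, which compares no control library, edgeR called 0 of the 8 genes, beside 0.0352% of all genes. PLIN4 alone was at an unadjusted p under 0.05, beside 10.8% of all genes, and DESeq2 called 0 of 5, beside 5.52%. The median was -0.43 and the values ran from -0.68 (CIDEC) to 0.56 (PLIN4), with 6 of the 8 genes below 0 and PLIN1 and PLIN4 above it. Any 2 of these comparisons share the libraries of a diet, so their values are not independent of one another. Nor are the signs of genes that moved together from piglet to piglet.

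**Figure D2:**
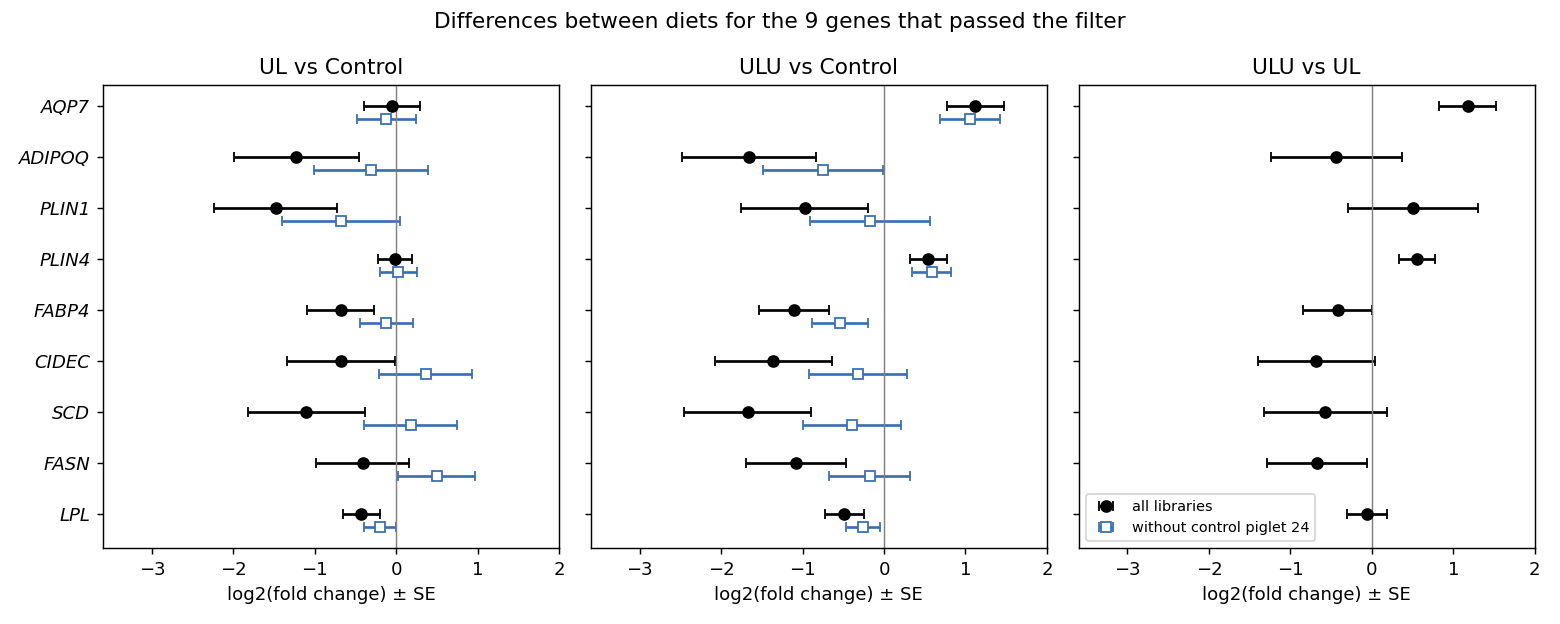
Fitted log2(fold change) on the x axis, with the standard error as the bar, of the 9 genes that passed the filter, in the 3 comparisons of diets. Filled circles use all 17 libraries and open squares leave out control piglet 24. AQP7 (1.12) and PLIN4 (0.54) lie to the right of 0 in ULU vs control, and the median of the 8 genes other than AQP7 moves from -1.09 to -0.29 without that piglet.

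Per kilobase of exon, the scale on which genes can be set against each other, FABP4 had the highest level, 54.4 ± 41.4 CPM per kb (SD, n = 17 libraries), and LPL the next, 38.8 ± 13.8 CPM per kb. LPL was above FABP4 in some piglets, since FABP4 was the higher in 13 of 17 libraries, and LPL was above ADIPOQ in 17 of 17. ADIPOQ (11.05 ± 14.2 CPM per kb), SCD (9.91 ± 14.7) and PLIN4 (6.88 ± 2.35) had no fixed order, as ADIPOQ exceeded SCD in 8 of 17 libraries and SCD exceeded PLIN4 in 9 of 17. CIDEC followed at 3.38 ± 4.04 CPM per kb, below PLIN4 in 16 of 17 libraries and above FASN in 17 of 17. FASN (0.455 ± 0.452 CPM per kb), AQP7 (0.304 ± 0.161) and PLIN1 (0.303 ± 0.359) again had no fixed order, and LEP was last with 0.0540 ± 0.121. The mean of AQP7 was above that of 16.3% of the tested genes, and the mean of FABP4 was above that of 96.0% of them.

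Whether the genes moved together from piglet to piglet was examined on log2 CPM values from which the mean of the diet had been subtracted, so that a difference between diets plays no part. ADIPOQ, PLIN1, FABP4, CIDEC, SCD and FASN formed a block: over the 17 libraries their 15 pairs had Pearson r values from 0.80 to 0.93. LPL was less close to them, with r from 0.52 to 0.75, and PLIN4 less again, with r from 0.17 to 0.44. AQP7 stood outside the block, with r from -0.21 to -0.07 to the same 6 genes. The block was picked out after these values were seen, so they are a description, and the libraries share their depth scaling. Without control piglet 24 the 15 pairs had r from 0.69 to 0.91, PLIN4 with the 6 genes 0.11 to 0.42 and AQP7 -0.16 to 0.01, so the block did not rest on that piglet.

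**Figure D3:**
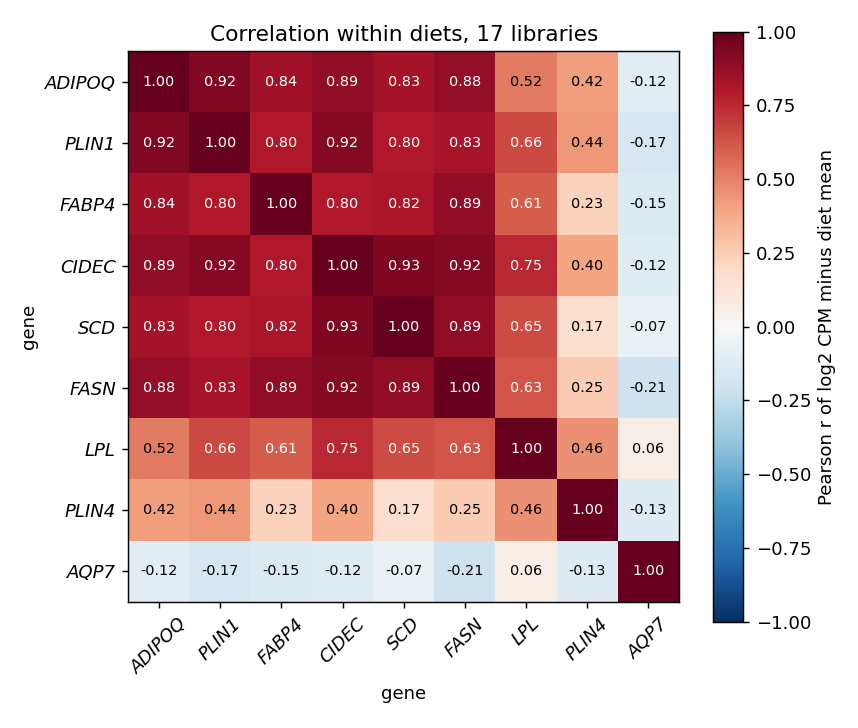
Pearson r, as colour and number, between the 9 tested genes on each axis, over 17 libraries after the diet means were subtracted from log2 CPM. ADIPOQ, PLIN1, FABP4, CIDEC, SCD and FASN are dark among themselves (0.80 to 0.93), and the row of AQP7 is pale (-0.21 to 0.06).

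The relation of AQP7 to each of the other 8 tested genes was tested by shuffling libraries within diets (two-sided, 100000 permutations, 8 relations adjusted together). The strongest was with FASN, with Pearson r = -0.21 (permutation p = 0.476, adjusted p = 0.827) and Spearman rho = -0.09 (permutation p = 0.767, adjusted p = 1). That with PLIN1 was r = -0.17 (permutation p = 0.518, adjusted p = 0.827) and rho = -0.13 (permutation p = 0.648, adjusted p = 1), and that with LPL, the only positive r, was 0.06 (permutation p = 0.803, adjusted p = 0.827) with rho = 0.04 (permutation p = 0.875, adjusted p = 1). No relation passed the test. When UL piglets 27 and 31, the libraries farthest from the median of AQP7, were left out, r lay between -0.26 (FASN) and 0.06 (LPL) and none passed. A moderate relation could be missed with 17 libraries and 9 to 81 reads of AQP7.

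Single piglets showed no fixed pattern. Their levels, given next, still hold the differences between diets, including the one by which AQP7 was chosen. Control piglet 24 had the highest mean log2 CPM of the 6 genes of the block, 6.00, and an AQP7 log2 CPM of 0.32, the second lowest in its group. UL piglet 27 had the highest mean of the block in UL, 4.32, with the lowest AQP7 log2 CPM of all libraries, -0.82. ULU piglet 40 had the lowest mean of the block in the study, 1.22, with an AQP7 log2 CPM of 1.85. ULU piglet 41, in contrast, was highest of its diet on both measures, with 3.78 and 2.0005. UL piglet 31 had a block mean of 4.18, below only piglet 27 in its diet, with the highest AQP7 log2 CPM of UL, 1.38.

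**Figure D4:**
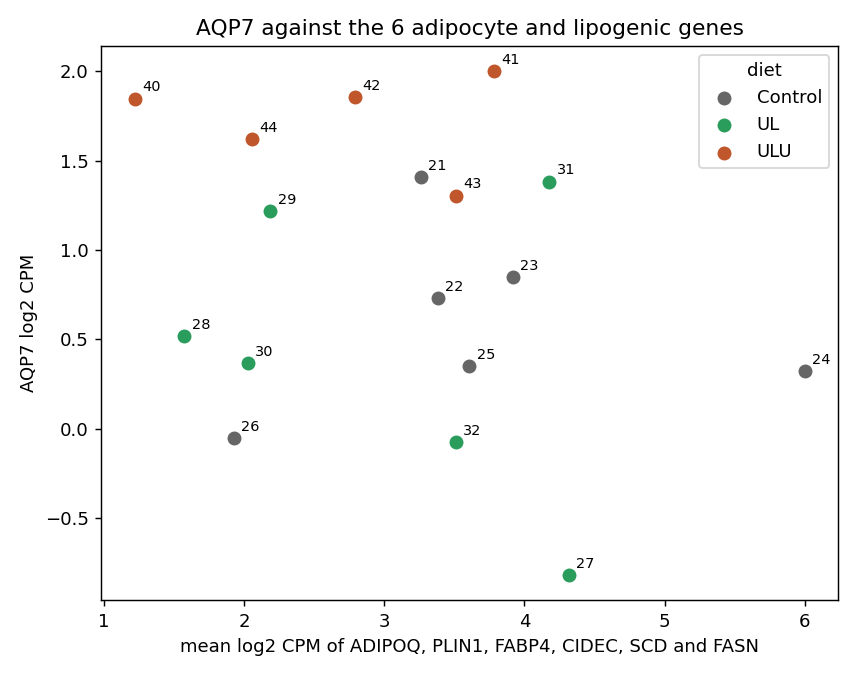
AQP7 log2 CPM on the y axis against the mean log2 CPM of ADIPOQ, PLIN1, FABP4, CIDEC, SCD and FASN on the x axis, with 1 point per piglet, coloured by diet and labelled with the piglet's number. The 5 ULU piglets lie between 1.304 and 2.0005 on the AQP7 axis and between 1.22 and 3.78 on the other.

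The distance of AQP7 from the other 8 tested genes, its log2 CPM minus their mean log2 CPM in the same library, averaged -3.85 ± 1.17 (SD, n = 6) over the control piglets, -3.43 ± 1.41 (SD, n = 6) over the UL piglets and -1.97 ± 0.91 (SD, n = 5) over the ULU piglets. It ran from -6.00 to -2.69 in control, from -5.78 to -2.05 in UL and from -3.10 to -0.72 in ULU. The ULU and control ranges met only at ULU piglet 43 (-3.10), which lay below control piglets 21 (-2.69) and 26 (-3.06). The ULU mean was 1.88 above the control mean on the log2 scale, and 1.45 above it without control piglet 24, when the control mean was -3.42 ± 0.56 (SD, n = 5). The UL mean was 0.42 above the control mean. No test was made of this measure, because it holds the level by which AQP7 was chosen.

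The 5 tested genes most like AQP7, by the Pearson r of the deviations from the diet means over the 17 libraries, were NTMT2 (r = 0.82), RFESD (0.81), an unnamed gene with the identifier ENSSSCG00000029199 (0.81), SPPL2B (0.80) and AQP3 (0.80). They are the highest of 14202 values, so no test is given. Without UL piglets 27 and 31 the r values were 0.72, 0.68, 0.61, 0.61 and 0.61. AQP3 encodes another channel that passes glycerol as well as water, and it had 55 to 449 reads per library. UL piglet 27, lowest of its diet for AQP7, was also lowest for AQP3 with 2.83 CPM, and control piglet 21 and UL piglet 31, highest of their diets for AQP7, were highest for AQP3 with 26.2 and 19.7 CPM. ULU piglet 43 was lowest of its diet for both genes. The other extremes differed. In ULU, AQP3 was highest in piglet 42 (19.5 CPM) and AQP7 in piglet 41 (AQP3 10.9 CPM). In control, AQP3 was lowest in piglet 22 (8.06 CPM) and AQP7 in piglet 26 (AQP3 8.41 CPM). The likeness did not extend to the diets, since AQP3 averaged 12.2 ± 6.99 CPM (SD, n = 6) over the control piglets and 10.8 ± 5.25 CPM (SD, n = 5) over the ULU piglets, with a log2(fold change) of -0.18 (edgeR adjusted p = 0.856). By the same measure the other members lay far from AQP7, and the closest of them, LPL, was in place 5830 of 14202.

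Lists of other genes of these pathways were compared in the same model. They were drawn up by function, with earlier results of these data known, and they share some genes. Of 17 adipocyte genes outside the 10, 10 were tested, and 9 of those had a fitted level below control in ULU, with a median log2(fold change) of -0.84 against -0.03 for all genes. Control piglet 24 was the highest library for 6 of the 10, and without it 9 of them passed the filter, 7 were below control and the median was -0.22. In ULU vs UL, which compares no control library, 9 of the 10 were lower, beside 53.0% of all genes. The median was -0.45, and 0 were called. PPARG, the transcription factor that drives adipocyte differentiation, was the only one of the 10 called in ULU vs control. It was at 2.34 to 13.04 CPM in control (median 4.47), 1.73 to 4.74 CPM in UL (median 2.56) and 1.31 to 2.79 CPM in ULU (median 1.75). Its highest library was again control piglet 24, and the control and ULU ranges overlapped between 2.34 and 2.79 CPM. PPARG fell by 1.55 on the log2 scale in ULU vs control (standard error 0.37, edgeR adjusted p = 0.0336). The call was lost without control piglet 22, 23 or 24 or without ULU piglet 40, 43 or 44, with adjusted p values up to 0.083, and without control piglet 24 the log2(fold change) was -1.09 (edgeR adjusted p = 0.0639).

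The largest difference in that list was that of THRSP, a nuclear protein of lipogenic tissues, with a log2(fold change) of -1.90 and a standard error of 0.88 that did not pass the test (edgeR adjusted p = 0.248). THRSP reached 199.9 CPM in control piglet 24 and 3.63 to 30.3 CPM in the other control piglets, and without piglet 24 the log2(fold change) was -0.47 (edgeR adjusted p = 0.770). It was also the largest among the 15 genes of fatty acid and triglyceride synthesis, of which 14 were tested, 10 had a fitted level below control in ULU, 0 were called by edgeR, and the median log2(fold change) was -0.62. Control piglet 24 was the highest library for 9 of these 14, and without it 8 were below control and the median was -0.24. The lowest edgeR adjusted p in that list was 0.0537, for ELOVL5, a fatty acid elongase, and it was 0.104 without that piglet. Over all genes edgeR called 1.99% higher and 0.993% lower in ULU than in control.

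The list of lipolysis, lipid droplet and glycerol handling had 12 genes, all tested, with a median log2(fold change) of -0.07, and 1 was called. MGLL, the lipase that takes the last fatty acid from glycerol and so yields the free glycerol that AQP7 carries, was at 25.9 to 42.7 CPM in control (median 32.8), 30.1 to 42.6 CPM in UL (median 35.3) and 39.6 to 54.7 CPM in ULU (median 48.7). The ULU range lay above the control median throughout and overlapped the top of the control range. MGLL rose in ULU vs control by a log2(fold change) of 0.54 (standard error 0.13, edgeR adjusted p = 0.0336), a call that was lost without control piglet 22, 23 or 26 or without ULU piglet 40, 41 or 43. The largest difference of the list was that of CIDEB, a relative of CIDEC, at -1.20 with a standard error of 0.63 (edgeR adjusted p = 0.314), and CIDEB did not pass the filter on low counts when control piglet 24 was left out.

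Of 10 other aquaporins, 5 were tested and 0 were called. AQP9, a further glycerol channel, had the largest difference, -0.76 with a standard error of 0.53 (edgeR adjusted p = 0.472) and -0.28 without control piglet 24 (edgeR adjusted p = 0.812), and AQP2 had 0 reads in every library. Of the 12 genes of the lipoprotein lipase system and fatty acid uptake, 12 were tested and 0 were called, with a median log2(fold change) of 0.22. SLC27A1, a fatty acid transporter of muscle and fat, had the largest difference, 0.67 with a standard error of 0.20 (edgeR adjusted p = 0.0671). Of 11 PPAR and RXR receptors and PPAR targets, 10 were tested, with a median of 0.35, and PPARG and PDK4 were called, both lower. PDK4, a kinase that shuts off pyruvate oxidation, was at 5.09 to 38.8 CPM in control (median 12.1), 5.29 to 10.8 CPM in UL (median 6.68) and 3.42 to 7.15 CPM in ULU (median 4.89). It fell by 1.67 on the log2 scale in ULU vs control (standard error 0.40, edgeR adjusted p = 0.0336), a call that was lost without control piglet 22 or without ULU piglet 40, 41, 42 or 43. With the mitochondrial share of each library as a covariate, PPARG, MGLL and PDK4 had edgeR adjusted p values of 0.201, 0.604 and 0.625. That share did not overlap between control and ULU, so the fit cannot tell it apart from the diet. No gene of these 6 lists was called in UL vs control or in ULU vs UL, where edgeR found the lowest adjusted p in them to be 0.213 and 0.104.

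**Figure D5:**
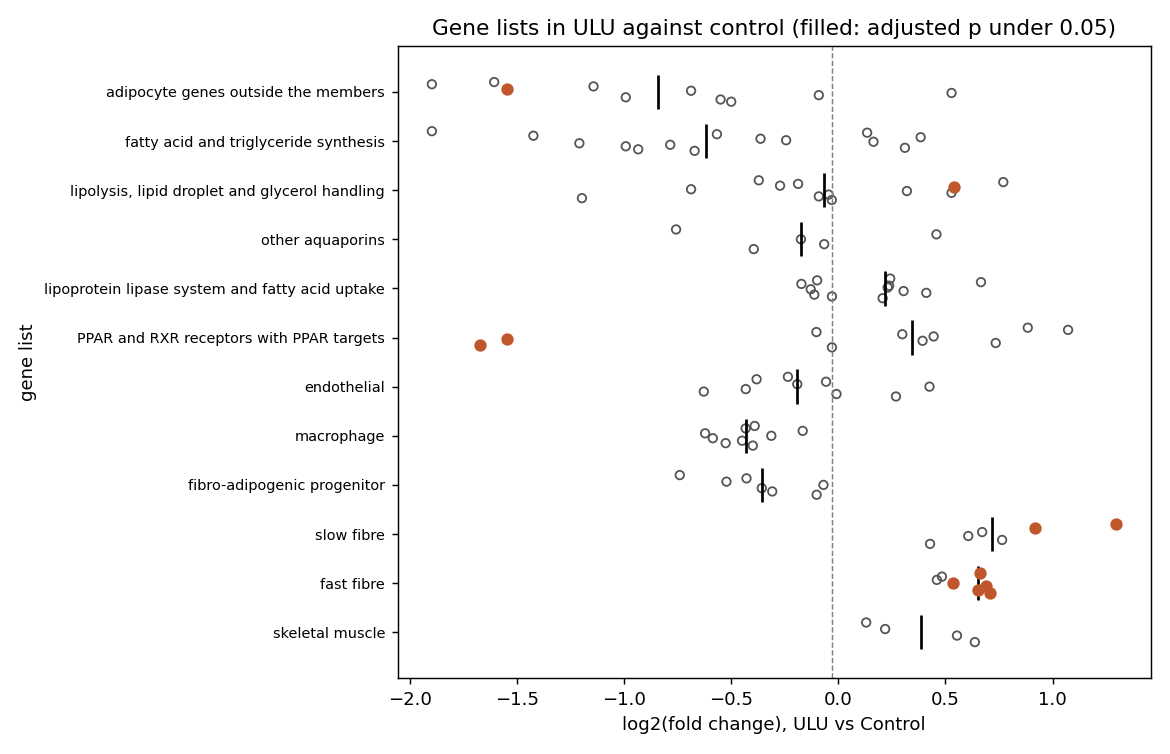
Fitted log2(fold change) in ULU vs Control on the x axis for the tested genes of 6 pathway lists and 6 lists of cell type markers on the y axis, with 1 point per gene, a bar at the median of the list and a dashed line at the median of all genes (-0.03). Filled points passed an edgeR adjusted p under 0.05, among them PPARG (-1.55) and PDK4 (-1.67) to the left and MGLL (0.54) to the right.

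Markers of the other cells of the tissue were read in the same comparison, ULU vs control, in which edgeR called 2.98% of all genes. Of 9 tested endothelial markers 0 were called (median log2(fold change) -0.19), and their summed level was 112 to 188 CPM in control and 116 to 203 CPM in ULU. Of 9 macrophage markers 0 were called (median -0.43), with a summed level of 133 to 296 CPM in control and 69.6 to 311 CPM in ULU. Of 7 markers of fibro-adipogenic progenitors, the cells from which intramuscular fat cells arise, 0 were called (median -0.36), with a summed level of 2664 to 5761 CPM in control and 2267 to 5758 CPM in ULU. All 9 macrophage markers, all 7 progenitor markers and 7 of the 9 endothelial markers had fitted levels below control, beside 53.0% of all tested genes. Markers of a cell type can move together from piglet to piglet, so these signs are not independent, and their count was not tested. No list had a marker at 0 in every library, and none of the 3 summed levels was highest in control piglet 24.

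The tested markers of the muscle fibres all had fitted levels above control in ULU, whereas 53.0% of all tested genes lay below it. The count of these signs was not tested. Over all genes edgeR called 1.99% higher in that comparison. Of 7 fast fibre markers, 5 were called higher in ULU than in control, for example ACTN3 with a log2(fold change) of 0.71 (edgeR adjusted p = 0.0128), and the median was 0.65. Of 6 slow fibre markers, 2 were called higher, TNNT1 (1.298, edgeR adjusted p = 0.0178) and TNNI1 (0.92, edgeR adjusted p = 0.0406), and the median was 0.72. Of these 7 calls, those of ACTN3 and MYBPC2 were kept in each of the 17 fits that left out 1 library, that of TNNT1 was lost without ULU piglet 40 or 41, that of ATP2A1 without control piglet 24 or ULU piglet 43 or 44, that of TNNT3 in 6 of the 17 fits, and those of TNNI1 and MYH2 were lost in 9 of the 17 fits. With the mitochondrial share as a covariate none of the 7 passed, and ACTN3 had the lowest edgeR adjusted p among them, 0.26. Because control and ULU did not overlap in that share, no conclusion on these genes can be drawn from that fit. Of 4 general skeletal muscle genes 0 were called, with a median of 0.39. The summed level of the fast fibre markers was 40590 to 66611 CPM in control and 62124 to 93590 CPM in ULU, and that of the slow fibre markers was 2602 to 6012 CPM in control and 4673 to 10276 CPM in ULU. The part of these differences, and of the lower mitochondrial share in ULU, in the levels of AQP7 and PLIN4 was not tested.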

How the data were processed

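RNA-seq counts of 17 libraries of piglet longissimus muscle (6 control, 6 UL and 5 ULU), grouped by their labels, were used. Per the methods, fastp trimmed the reads and HISAT2 placed them on the genome. The authors deposited whole counts per gene with no normalization. The file's first line names featureCounts 2.0.1 and the Ensembl annotation 104 of Sscrofa11.1, with no strand setting. Symbols came from a gene table for 15029 of 31908 identifiers, otherwise from the names in the count file or, for 4 genes that include AQP7, from the RefSeq gene at the same position of the same assembly. CIDEA, VWF, MYH7, MYH1, MYH4, MB and TTN were not analysed here.

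Counts were scaled with TMM, genes with low counts were removed with filterByExpr, and 14203 genes were fitted in 1 model of all 17 libraries with the quasi-likelihood test of edgeR 4.0.16 in R 4.3.3. A gene was called at a Benjamini-Hochberg adjusted p under 0.05. A prior count of 2 entered the log2 CPM. DESeq2 1.42.0 on 2 diets at a time, other scaling, no filter, the mitochondrial share as a covariate, 2 diets only, a log2(fold change) limit of 1 and leaving out each library were the alternatives. Correlations and figures were computed in Python 3.11.15 with scipy 1.17.1. The fits were tested on simulated data. The genes given by name are the 10 members, every gene of a pathway list with an adjusted p under 0.05 in any comparison, the gene with the largest change in ULU vs control in each pathway list, and the 5 genes most like AQP7. ELOVL5, NFX1, HDGFL2 and the marker genes named were added after their values were seen. The members and lists were chosen with earlier results of these data known.

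Libraries held 16137365 to 26546810 counted reads, and limits of 3 reads cover counting error only. Pairs of libraries of a diet differed by far more than sampling noise, with a chi-square of at least 18.8 per degree of freedom, so none was counted as a repeat. Each library is a separate piglet. The labels name no sequencing batch. The authors' column of mean counts was used only as a check, and their protein data were not used here.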

Additional observations from a re-analysis of the deposited data

Results flagged for a closer look

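Within each diet the library farthest from the others was compared with Dixon's criterion, the gap to the nearest library divided by the range of the group, for the 10 genes in 3 diets. The criterion was applied to CPM without a log transform. Its limit marks about 1 in 20 groups by chance only if the values are normally distributed, which was not examined. Of the 30 groups 7 were marked, all for control piglet 24. On the log2 scale used for the correlations the ratios would be lower, and they were not computed. The ratio was 0.776 for ADIPOQ (238 CPM), 0.914 for LEP (1.64 CPM), 0.713 for PLIN1 (6.27 CPM), 0.808 for FABP4 (311 CPM), 0.802 for CIDEC (22.9 CPM), 0.886 for SCD (375 CPM) and 0.790 for FASN (16.9 CPM), against a limit of 0.625 for 6 libraries. These genes moved together from piglet to piglet, so the 7 marks are not independent of one another. AQP7, PLIN4 and LPL were not marked in any diet. The cause of the high levels in this piglet was not tested.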

How the results depend on the processing

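No member difference that was tested was called under any alternative run: edgeR or DESeq2, all libraries or 2 diets only, other scaling, no filter, the mitochondrial share as a covariate, a log2(fold change) limit of 1, and each library left out. AQP7 was not tested in ULU vs control or ULU vs UL. The lowest adjusted p of a tested member difference under an alternative was 0.0883 (PLIN4 in ULU vs control). In ULU vs control the fitted fold moved by over 1.5 times for ADIPOQ, PLIN1, CIDEC, SCD and FASN without control piglet 24, for PLIN1 without ULU piglet 43 (log2 value -1.77), and for CIDEC (-2.31) and SCD (-2.82) with the covariate, which gave -1.47 and -1.94 in UL vs control. The covariate did not overlap between control and ULU, so it cannot be told apart from the diet in that comparison. Of the pathway lists, leaving out control piglet 24, chosen after seeing the data, moved the medians of the adipocyte genes (-0.84 to -0.22) and the synthesis genes (-0.62 to -0.24) in ULU vs control. Of 594 member fold changes recomputed, 14 had the opposite sign, each on leaving out 1 library. The ranges over the libraries left out were -0.29 to 0.15 for AQP7, -0.11 to 0.10 for PLIN4, -1.15 to 0.36 for CIDEC, -1.54 to 0.18 for SCD and -0.61 to 0.50 for FASN in UL vs control, and -0.29 to 0.96 for PLIN1 and -0.16 to 0.10 for LPL in ULU vs UL. Correlations of AQP7 within diets changed sign in the control libraries alone for ADIPOQ (0.11), PLIN1 (0.15), CIDEC (0.11) and SCD (0.13), in the UL libraries alone for PLIN4 (0.12) and LPL (-0.059), and without UL piglets 27 and 31 for SCD (0.051), and none passed the test. The distance of AQP7 from the other members, ULU minus control, was 1.45 to 2.16 with a library left out, 1.94 with a prior count of 0.5 and 1.90 against ADIPOQ, PLIN1, PLIN4, FABP4 and CIDEC alone. UL minus control ran from -0.01 to 0.89 and ULU minus UL from 0.99 to 1.74 with a library left out. DESeq2 called 149 genes in UL vs control, 822 in ULU vs control and 244 in ULU vs UL, against 0, 423 and 5 by edgeR. With 9 to 81 reads of AQP7 and 30 or fewer of LEP per library, small differences of these genes were not detectable. The piglets were pair-fed, but the labels name no pairs of piglets, so no paired analysis was made.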
